A study of Mus musculus with 6 samples.

Results

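The genes described here form the lymphoid-organizing system, namely the homeostatic chemokine genes Ccl19, Ccl21a and Cxcl13, the chemokine receptor genes Ccr7 and Cxcr5, the lymphotoxin genes Lta and Ltb, their receptor gene Ltbr, Tnfsf13b and Glycam1. They were chosen by gene symbol, with earlier results of these data known. All 10 were among the 21720 symbols of the deposited expression table. RNA came from tumours of H22, a mouse hepatocellular carcinoma line with the genotype label WT, which had been grown under the skin of female BALB/c mice (6 to 8 weeks old per the study's methods) and not in the liver. Control mice were gavaged with 0.5% carboxymethyl cellulose sodium and the others with luteolin, a flavonoid of plants, at 200 mg/kg. Doses of 0.2 mL were given once a day for 21 days, starting at a tumour volume of about 50 mm3. Each group had 3 libraries, called control replicates 1 to 3 and luteolin replicates 1 to 3. The labels do not say that they came from separate animals, so the p values measure only the spread between these libraries. Among the markers of the labelled cell type, Afp (alpha-fetoprotein) had 59.4, 66.7 and 43.4 CPM in the control libraries and 32.7, 41.8 and 38.8 CPM in the luteolin libraries, while Alb (albumin) ranged from 0.868 to 133 CPM across the 6 libraries. Gpc3 (glypican 3) had 1.19, 0.633 and 1.30 CPM in the control libraries and 8.24, 9.34 and 3.13 CPM in the luteolin libraries, with a log2 fold change of 2.73 (unadjusted p = 0.0017 in edgeR).

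In lymphoid organs, lymphocytes carry lymphotoxin α and β on their surface and bind the lymphotoxin β receptor of stromal and endothelial cells. The receptor signals through the alternative NF-κB pathway, whose end products p52 and RelB switch on chemokine genes. CCL19 and CCL21 attract T cells and dendritic cells through CCR7, CXCL13 attracts B cells through CXCR5, and high endothelial venules, which carry glycoproteins such as GLYCAM1, let lymphocytes in from the blood. The cytokine BAFF, encoded by Tnfsf13b, keeps B cells alive. In tumours, the same molecules are known from clusters of lymphocytes called tertiary lymphoid structures.

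Values are estimated counts per gene, and CPM are counts scaled to a library total adjusted by the TMM method of edgeR. Library totals were 69391357, 66256017 and 66655030 counts in control replicates 1 to 3 and 61081637, 80442954 and 63965501 counts in luteolin replicates 1 to 3. Of all values from 1 to 40, 44.8% were multiples of 4, so that a read pair may stand for 4 counts in this table. A count of 0 thus allows up to 3 counts, or up to 12 in the latter case. Such limits cover counting error alone. Genes were tested with the quasi-likelihood method of edgeR over 14963 genes, and up-regulated here means past the threshold of the study, which asks for p under 0.05 before adjustment and a fold change over 2. Of the 10 genes, 8 passed the filter on low counts, and Ccl19 and Glycam1 did not.

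Ccl21a has close copies with rows of their own in the table, and its sequence shows how far reads can tell them apart. In the transcripts of GENCODE M21, the coding part of Ccl21a and that of Ccl21b differed at 2 of 399 positions, counted from 1 at the start codon. The differences were T84A and C194T, with the base of Ccl21a first. The surrounding coding bases are shown here with the differing base in capitals, since a read that covers neither position fits both genes:
Ccl21a, coding positions 69 to 98: cagtgatggagggggTcaggactgctgcct
Ccl21b, coding positions 69 to 98: cagtgatggagggggAcaggactgctgcct
Ccl21a, coding positions 179 to 208: cggcaatcctgttctCaccccggaagcact
Ccl21b, coding positions 179 to 208: cggcaatcctgttctTaccccggaagcact
The study's own PCR primers for Ccl21 lie around the second difference. The forward primer had 0 mismatches to either gene, and the reverse primer had 0 to Ccl21a and 1 to Ccl21b, shown in capitals:
Ccl21 forward primer: ccctacagtattgtccgaggc
Ccl21 reverse primer: gtGagaacaggattgccggg

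Other transcripts with at least 95% identity to Ccl21a over 200 or more bases were those of Gm10591, Gm13304 and Gm21541. The table listed Ccl21b, Gm10591 and Gm13304 at the same values in every library, namely 0 counts in the control libraries and 1, 52 and 0 counts in luteolin replicates 1, 2 and 3. The row of Ccl21a held more reads than these copies in each library with any, so the values given for Ccl21a are those of its own row, with the division of reads among the copies uncertain. Ccl19 shares such stretches with Gm2564 and with 3 pseudogenes, which had no row of their own among the symbols used here. The other 8 genes had no such match.

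At the study's threshold, 6 of the 8 tested genes were up-regulated in the luteolin group, against a background of 11.3% of all tested genes, and 0 were down-regulated, where the background was 1.52%. They were the chemokine genes Ccl21a and Cxcl13, the receptor gene Ccr7, both lymphotoxin genes and Tnfsf13b, with fold changes from 3.17 to 45.6. Cxcr5 and Ltbr did not pass. Ccl21a and Lta had few counts in the control libraries and passed the filter on low counts only with luteolin libraries included. Where at least 10 counts were asked of every library, these could not be tested. Cxcl13, Ccr7, Ltb and Tnfsf13b were still up-regulated in that setting. For 5 of the 8 genes, each luteolin library lay above each control library, which was so for 15.9% of all tested genes. After Benjamini-Hochberg adjustment in edgeR, 0 of the 8 had an adjusted p under 0.05, a level that 1.34% of all tested genes reached with higher values in the luteolin group. All 6 had an unadjusted p under 0.05, while DESeq2 gave 5 of 10 genes and limma's voom with sample quality weights 4 of 8 genes at an adjusted p under 0.05. Over all genes, those fits gave 9.58% (of 16114 genes with an adjusted p in DESeq2) and 12.6% (voom) as higher at that level. For 3 libraries against 3, an exact permutation test of a single gene cannot go below p = 0.1.

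**Figure D1:**
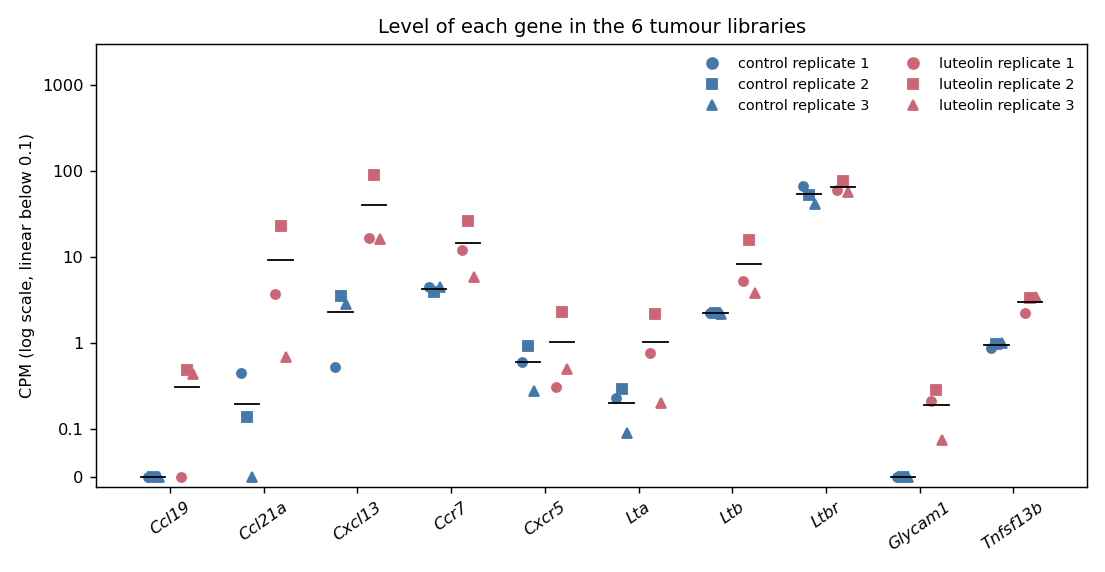
Level of each gene in CPM (log scale, linear below 0.1) in the 3 control (blue) and 3 luteolin (red) libraries, with marker shapes for replicates 1 to 3 and black lines for group means. The square of luteolin replicate 2 is the highest point for every gene except Tnfsf13b.

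Cxcl13 had a higher mean level in the luteolin group than the other chemokine genes chosen here, Ccl19 and Ccl21a. It had 0.529, 3.55 and 2.90 CPM in control replicates 1, 2 and 3 and 16.7, 89.6 and 16.5 CPM in luteolin replicates 1, 2 and 3. The lowest luteolin library thus stood above the highest control library, and control replicate 1 was low for its group. Its log2 fold change was 4.14 with a standard error of 0.98 (unadjusted p = 0.00407 and Benjamini-Hochberg adjusted p = 0.0922 in edgeR). Without luteolin replicate 2 it was 2.86, with the gene still past the study's threshold. These values rest on 454 counts in all control libraries and 9565 in all luteolin libraries.

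Ccl21a had 32, 9 and 0 counts in control replicates 1, 2 and 3 and 227, 1940 and 44 counts in luteolin replicates 1, 2 and 3. In CPM these are 0.458, 0.139 and 0 against 3.71, 23.2 and 0.688, so that luteolin replicate 3 stood only just above control replicate 1 and luteolin replicate 2 held most of the signal. On the log2 scale the change was 5.51 with a standard error of 1.71 (adjusted p = 0.15 in edgeR), and 3.45 without luteolin replicate 2. Leaving out control replicate 2 gave a change of 5.23 on the log2 scale with an unadjusted p of 0.058 in edgeR, and the gene was then no longer called.

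Ccl19, which shares the receptor of Ccl21a, was close to the limit of detection. It had 0 counts in the 3 control libraries and in luteolin replicate 1, and 41 and 28 counts in luteolin replicates 2 and 3. The groups therefore overlapped at 0. Against a limit of 3 counts in each control library, the luteolin mean was at least 6.84-fold higher, and with a limit of 12 counts at least 1.71-fold. The filter on low counts removed the gene with all 6 libraries in use. Without that filter the unadjusted p was 0.0342 in edgeR (adjusted p = 0.233) and 0.0231 in DESeq2 (adjusted p = 0.128).

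Cxcl13 is one of the genes by which the alternative NF-κB pathway is known, and its promoter carries letters of the κB element described there. The window of 250 bases before to 50 bases after the start, from RefSeq (GRCm38.p6, chr5:95956689-95956988, plus strand), is shown 5′ to 3′ with matches in capitals:
Cxcl13 promoter: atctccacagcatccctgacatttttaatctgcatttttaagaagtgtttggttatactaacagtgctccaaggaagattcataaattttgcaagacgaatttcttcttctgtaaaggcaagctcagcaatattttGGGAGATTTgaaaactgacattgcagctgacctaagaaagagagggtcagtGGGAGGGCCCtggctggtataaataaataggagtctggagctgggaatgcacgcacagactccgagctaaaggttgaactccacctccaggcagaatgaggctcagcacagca
The first match is GGGAGATTT, searched on both strands after the sequence had been seen, which 0.317% of the 32851 RefSeq promoter windows of this length hold. The second is the general pattern of GGG, 5 bases of any kind and CC on either strand, which here matches both strands at the same place and which 50.8% of windows hold. RefSeq gave 9 windows for 8 of the 10 genes, Ccr7 and Cxcr5 being without one here. The general pattern was in 5 of the 9 windows, those of Ccl19, Cxcl13, Ltbr, Ltb and Lta, and GGGAGATTT was in 1. A match describes the letters only.

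The receptor genes differed in what they showed. Ccr7, the receptor for CCL19 and CCL21 on naive T cells and mature dendritic cells, had 4.46, 3.92 and 4.54 CPM in control replicates 1, 2 and 3 and 12, 26.3 and 5.91 CPM in luteolin replicates 1, 2 and 3. The control libraries lay close together, and each luteolin library was above them. This gave a log2 fold change of 1.77 with a standard error of 0.53 (adjusted p = 0.14 in edgeR), and of 1.07 without luteolin replicate 2. Cxcr5, the receptor for CXCL13 on B cells and follicular helper T cells, had 0.615, 0.927 and 0.279 CPM against 0.310, 2.30 and 0.501 CPM. Its groups overlapped, with 2 of the 3 luteolin libraries inside the control range, and its log2 fold change of 0.77 (standard error 0.89, unadjusted p = 0.414 in edgeR's test) turned to -0.56 without luteolin replicate 2 and to -1.01 in voom. Whether Cxcr5 differs from Cxcl13 in its response was not tested.

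Of the lymphotoxin genes, Ltb was the more abundant. It had 2.28, 2.27 and 2.19 CPM in control replicates 1, 2 and 3 and 5.31, 15.7 and 3.86 CPM in luteolin replicates 1, 2 and 3, with no overlap between the groups. Its log2 fold change was 1.89 with a standard error of 0.57 (adjusted p = 0.141 in edgeR), and 1.05 without luteolin replicate 2. Lta had only 16, 19 and 6 counts in the control libraries and 47, 181 and 13 counts in the luteolin libraries. Luteolin replicate 3 lay within the control range. Its log2 fold change of 2.34 (standard error 0.96, unadjusted p = 0.0456, adjusted p = 0.234 in edgeR's test) fell short of the study's threshold in 10 of the 15 alternative settings that could test it. Without luteolin replicate 2 it was 1.25, with an unadjusted p of 0.234.

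Ltbr, which encodes the receptor for these ligands, was the most abundant of the genes in the control tumours and had the smallest log2 fold change of the 8 tested. It had 67.0, 53.0 and 41.9 CPM in control replicates 1, 2 and 3 and 60.8, 77.7 and 56.9 CPM in luteolin replicates 1, 2 and 3, so that the groups overlapped. That change was 0.27 with a standard error of 0.22 (unadjusted p = 0.261 in edgeR), and -0.01 with offsets for GC content and gene length. With those offsets the median over all tested genes was itself -0.24, against -0.01 without them, and up-regulated genes made up 75.0% of the genes called in either direction at the study's threshold, in place of 88.1%.

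Tnfsf13b, the BAFF gene, depended little on any library. It had 0.873, 0.988 and 1.01 CPM in control replicates 1, 2 and 3 and 2.25, 3.40 and 3.46 CPM in luteolin replicates 1, 2 and 3. Luteolin replicates 2 and 3 were nearly equal, and all 3 were above the controls. The change on the log2 scale was 1.67 with a standard error of 0.40 (unadjusted p = 0.00438 and adjusted p = 0.0957 in edgeR). Leaving out any 1 library gave values from 1.51 to 1.84.

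Glycam1 encodes a mucin-like glycoprotein of high endothelial venules and is also known as a milk protein gene of the mammary gland. It had 0 counts in the 3 control libraries and 13, 24 and 5 counts in luteolin replicates 1, 2 and 3. The luteolin libraries thus lay above the controls, but the count of 5 is below the limit that applies where a read pair counts as 4. Against 3 counts in each control library the luteolin mean was at least 4.25-fold higher, and against 12 counts at least 1.06-fold. The unadjusted p without the filter on low counts was 0.016 in edgeR (adjusted p = 0.182) and 0.0117 in DESeq2 (adjusted p = 0.0806). Of 7 milk protein genes, 4 were at 0 in every library, and the most abundant, Csn3 (kappa-casein), had 0.644, 3.32 and 17.9 CPM in the control libraries and 4.88, 0.0598 and 8.09 CPM in the luteolin libraries.

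**Figure D2:**
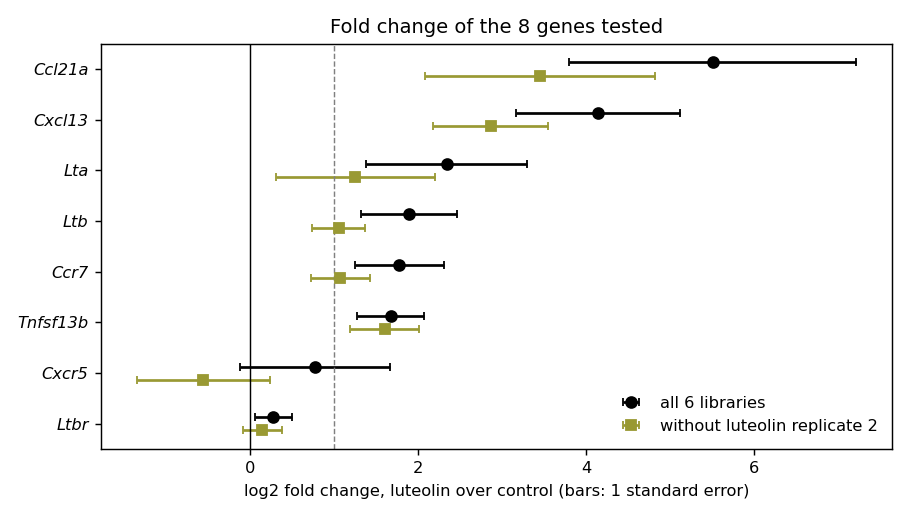
Log2 fold change of luteolin over control for the 8 tested genes, with 1 standard error, from all 6 libraries (black circles) and without luteolin replicate 2 (olive squares). The dashed line marks a log2 fold change of 1, and Cxcr5 crosses 0 when that library is left out, while Tnfsf13b moves from 1.67 to 1.6.

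Luteolin replicate 2 had the highest CPM for 7 of the 8 tested genes, against 34.0% of all tested genes. Its CPM were 10.6 times the mean of luteolin replicates 1 and 3 for Ccl21a, 5.67 times for Cxcr5, 5.40 times for Cxcl13, 4.46 times for Lta, 3.43 times for Ltb, 2.94 times for Ccr7, 1.32 times for Ltbr and 1.19 times for Tnfsf13b. Without this library 5 genes remained past the study's threshold, namely Ccl21a, Cxcl13, Ccr7, Ltb and Tnfsf13b, against 7.52% of all genes tested in that setting.

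Levels were also set beside each other per kilobase of the longest coding transcript in GENCODE M21. In the control group the order of mean CPM per kilobase was Ltbr (25.6), Ccr7 (2.18), Cxcl13 (2.02), Ltb (1.93), Ccl21a (0.229), Cxcr5 (0.213), Tnfsf13b (0.200) and Lta (0.148), with Ccl19 and Glycam1 at 0. The range of Cxcl13 overlapped those of Ccr7 and Ltb, as did those of neighbours from Ccl21a to Lta. In the luteolin group Cxcl13 (35.6) came before Ltbr (30.9), but its libraries spread from 14.4 to 77.9 and overlapped those of Ltbr. Ccl21a (10.6), Ccr7 (7.45) and Ltb (7.15) followed with overlapping ranges, and the remaining genes had means from 0.30 to 0.756.

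The T-cell marker list, with Cd4 as its most abundant gene, moved with these genes. In bulk tumour RNA, fewer cells of a type and less RNA per cell cannot be told apart. The list had 7 of its 8 genes in the table and tested, all 7 were up-regulated at the study's threshold, and none was at 0 in a whole group. Its summed level was 10.5, 14.1 and 12.1 CPM in control replicates 1, 2 and 3 and 42.4, 74.3 and 41.8 CPM in luteolin replicates 1, 2 and 3. Cd8a, for the cytotoxic T-cell coreceptor, had a log2 fold change of 2.51 and Cd3g, of the T-cell receptor complex, of 2.33. Per 100 CPM of this list, Ccr7 had 36.0 ± 7.51 CPM in control and 25.9 ± 10.8 CPM in luteolin libraries (SD, n = 3 each, exact permutation test, two-sided p = 0.3). The same measure was 18.6 ± 2.84 and 14.3 ± 6.15 CPM for Ltb (exact permutation p = 0.3), 1.68 ± 0.788 and 1.74 ± 1.22 CPM for Lta (exact permutation p = 1) and 4.91 ± 2.28 and 1.67 ± 1.25 CPM for Cxcr5 (exact permutation p = 0.2). The groups overlapped in all 4 ratios, which share their denominator in each library. Without luteolin replicate 2, the log2 ratio of luteolin to control went from -1.55 to -2.35 for Cxcr5, from 0.05 to -0.55 for Lta, from -0.47 to -0.76 for Ccr7 and from -0.38 to -0.77 for Ltb. Leaving out luteolin replicate 3 moved these ratios the other way, to -1.36 for Cxcr5, 0.49 for Lta, -0.18 for Ccr7 and -0.15 for Ltb.

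**Figure D3:**
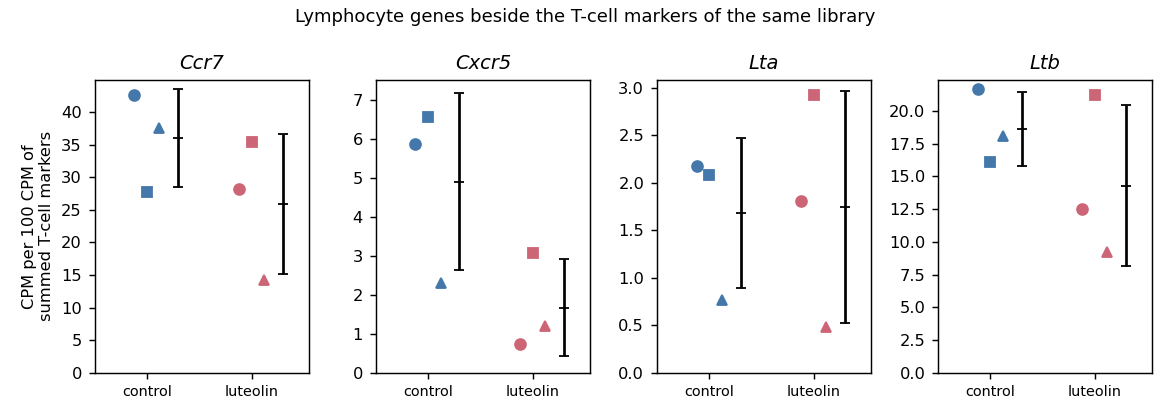
CPM of Ccr7, Cxcr5, Lta and Ltb per 100 CPM of the summed T-cell markers of the same library, for each control (blue) and luteolin (red) replicate, with mean and SD in black. The points of the groups overlap in each panel, and the Lta means are 1.68 and 1.74.

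B-cell markers were less even. Of 8 genes, 7 were tested and 3 were up-regulated at the study's threshold (Cd79a, Cd79b and Fcrla), with Cd22 as the most abundant gene and none at 0 in every control library. Their summed level was 14.0, 12.2 and 14.0 CPM in control replicates 1, 2 and 3 and 17.0, 46.2 and 35.5 CPM in luteolin replicates 1, 2 and 3. Cd79b, part of the B-cell receptor, had a log2 fold change of 2.17. Without luteolin replicate 2, 1 of these genes was up-regulated. The naive and central memory list had 5 of 6 genes up-regulated, with Il7r (the interleukin 7 receptor, log2 fold change 2.25) among them, while Tcf7, its most abundant gene, had -0.22. Without luteolin replicate 2, 3 of them were. Of the follicular helper list, 3 of 4 tested genes were up-regulated, Pdcd1 with 2.04, Icos with 2.44 and Bcl6 with 1.20. Bcl6 had 0.64 without luteolin replicate 2 and was then not called.

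The stromal cells that make these chemokines were followed by lists of their own. For lymphatic endothelium, which makes CCL21, 0 of 3 tested genes among 5 passed the study's threshold, and the summed level was 5.37, 5.70 and 6.81 CPM in control replicates 1, 2 and 3 and 19.4, 23.9 and 6.23 CPM in luteolin replicates 1, 2 and 3. Its most abundant gene was Lyve1, and its defining gene Prox1 had 0, 0.0618 and 0.0620 CPM against 0.473, 1.15 and 0.141 CPM. Luteolin replicate 3 was within the control range for this list and also had the lowest Ccl21a of its group. For fibroblastic reticular cells, which make CCL19 and CCL21, 4 of 7 genes were up-regulated, among them Pdpn (podoplanin, log2 fold change 3.09), Grem1 (4.47) and Bst1 (1.71), with adjusted p values of 0.048, 0.0331 and 0.0331 in edgeR. These genes are also active in other fibroblasts. The summed level was 184, 146 and 246 CPM in the control libraries and 365, 421 and 238 CPM in the luteolin libraries, with overlapping groups and Des (desmin, also a muscle gene) as the most abundant. For follicular dendritic cells, a source of CXCL13, 0 of 3 tested genes passed, and Cr2, their complement receptor, had between 0.0429 and 0.313 CPM in the 6 libraries.

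Keratinocyte markers moved with luteolin replicate 2 as well. The 6 genes summed to 3.91, 4.28 and 3.23 CPM in control replicates 1, 2 and 3 and 363, 8230 and 14.6 CPM in luteolin replicates 1, 2 and 3, with Krt14 as the most abundant. In every control library 5 of the 6 genes were at 0, Krt10 being the exception. All 5 tested genes were up-regulated at the study's threshold, where the background was 11.3%. Krt14, Krt5, Krt1 and Krtdap could pass the filter on low counts only through luteolin libraries, so their calls were not independent of that filter. The order of the luteolin libraries, replicate 2, then 1, then 3, was the same as for Ccl21a, Cxcl13, Ccr7, Lta, Ltb, Ltbr and Glycam1, and the part of skin tissue in those values was not tested. Adipocyte genes, with Fabp4 as the most abundant, summed to 16.2, 13.8 and 58.7 CPM against 43.1, 233 and 15 CPM, with 0 of 4 tested genes past the threshold.

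**Figure D4:**
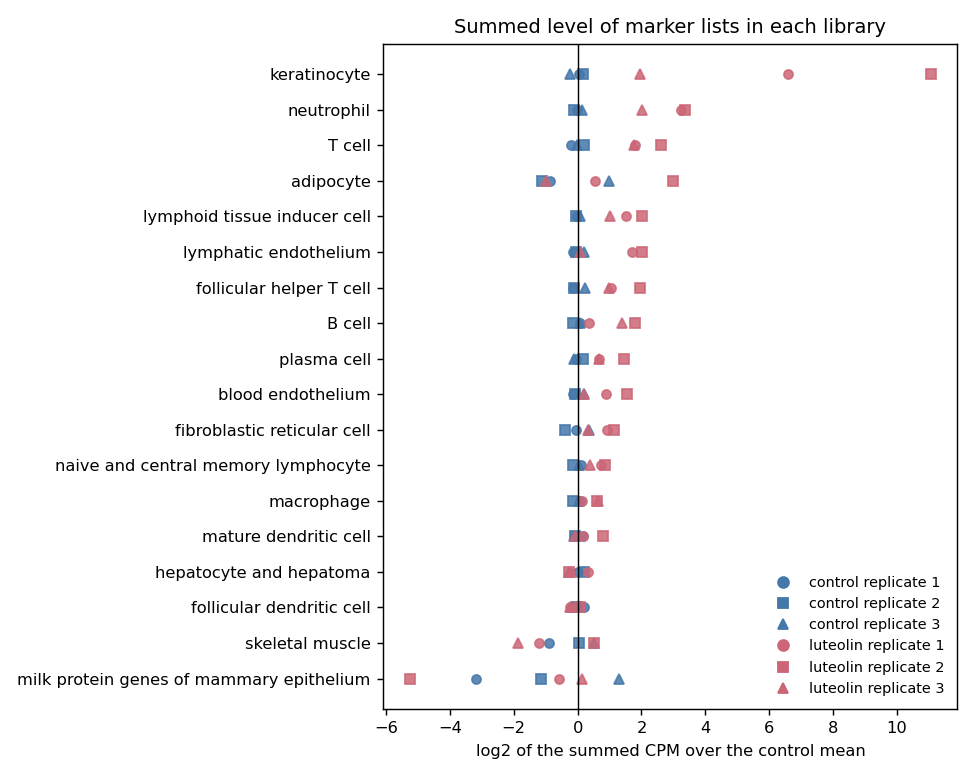
Summed CPM of each of 18 marker lists in each library, as log2 of its ratio to the control mean, with control libraries in blue, luteolin libraries in red and marker shapes for replicates. Keratinocyte genes reach the largest ratio in luteolin replicate 2, and the 3 luteolin points of the T-cell list are all to the right of the control points.

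Next came the ligands and receptors nearest to lymphotoxin in the tumour necrosis factor family. Of 8 tested genes, 6 were up-regulated at the study's threshold, with a median log2 fold change of 1.45, where the median over all tested genes was -0.01. Tnf, the founding cytokine of the family, had 1.5, 1.53 and 1.07 CPM in control replicates 1, 2 and 3 and 9.18, 8.57 and 4.22 CPM in luteolin replicates 1, 2 and 3, a log2 fold change of 2.42. Tnfrsf14, the receptor HVEM, had a log2 fold change of 1.68, and its ligand gene Tnfsf14 (LIGHT, a second ligand of the lymphotoxin β receptor, named after its values had been seen) of 1.71. Tnfrsf1b, a receptor for tumour necrosis factor, had 1.03. Tnfrsf1a, the most abundant gene of the list, had 0.83 and did not pass the fold threshold. The count was 3 without control replicate 2 and 5 without luteolin replicate 2.

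The alternative NF-κB pathway downstream of the receptor had 1 of 8 tested genes up-regulated, a share close to the background of 11.3%, and a median log2 fold change of 0.00. The gene was Traf3, an adaptor that holds the pathway in check, with 6.28, 5.65 and 7.77 CPM in control replicates 1, 2 and 3 and 18.2, 29.0 and 11.8 CPM in luteolin replicates 1, 2 and 3 (log2 fold change 1.58, unadjusted p = 0.00357 in edgeR's test). Nfkb2, the precursor of p52 and the most abundant gene of the list, had 289, 251 and 203 CPM against 283, 263 and 290 CPM, and Relb had 33.1, 26.1 and 18.5 CPM against 37.2, 44.7 and 26.9 CPM. Both overlapped between the groups. Traf2 lay below every control library in each luteolin library, with a log2 fold change of -0.38. These are transcript levels, and processing of p100 to p52 is not measured by RNA-seq.

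In the BAFF and APRIL system, 0 of 3 tested genes passed the threshold besides Tnfsf13b itself. Tnfrsf13b, the receptor TACI, had 3.59, 4.14 and 5.23 CPM in the control libraries and 7.58, 10.3 and 7.06 CPM in the luteolin libraries, a log2 fold change of 0.95 just under the fold threshold (unadjusted p = 0.0194 in edgeR's test). Tnfrsf13c, the BAFF receptor of mature B cells, had a log2 fold change of 1.45 with overlapping groups (unadjusted p = 0.103 in edgeR's test), and Tnfsf13, the APRIL gene, had 0.26. Leaving out control replicate 2, control replicate 3 or luteolin replicate 1 each gave 1 up-regulated gene in this list.

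Among other homeostatic chemokines and their receptors, 5 of 12 tested genes were up-regulated. Cxcl16, the membrane-bound ligand of CXCR6, had 56.5, 57.8 and 51.7 CPM in control replicates 1, 2 and 3 and 105, 161 and 117 CPM in luteolin replicates 1, 2 and 3, a log2 fold change of 1.20 (adjusted p = 0.0437 in edgeR). Ccr9, a receptor of gut-homing lymphocytes, had a log2 fold change of 2.66 and Cxcr4, the receptor for CXCL12, of 1.07. The remaining up-regulated genes were Cxcl12 (2.29) and Cxcr6 (2.26), named after their values had been seen. Ackr4, which removes CCL19 and CCL21 from tissue, had 10.3 CPM in luteolin replicate 2 and from 0.188 to 0.680 CPM in the other libraries. Its log2 fold change of 2.84 did not pass (unadjusted p = 0.0861 in edgeR's test) and was -0.63 without that library. The count of up-regulated genes was 3 with offsets for GC content and gene length, in voom and without control replicate 1, and 4 without control replicate 2 or luteolin replicate 2.

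Of the genes of venules and of the glycan ligands made there, 8 of 11 tested genes were up-regulated. Icam1, an adhesion molecule of activated endothelium and many other cells, had 16.4, 15.2 and 13.5 CPM in control replicates 1, 2 and 3 and 35, 73.2 and 28.1 CPM in luteolin replicates 1, 2 and 3, a log2 fold change of 1.59. Selp (P-selectin, 2.33), Sele (E-selectin, 3.91) and Fut7 (a fucosyltransferase, 2.01) were also up-regulated and are named after their values had been seen. B3gnt3, which extends core glycans, was the exception in direction with -0.68 (unadjusted p = 0.00247 in edgeR's test), below the controls in all 3 luteolin libraries. The genes most restricted to high endothelial venules were scarcely detected. Chst4, the venule sulfotransferase, was at 0 in the control libraries and luteolin replicate 1 and had 0.144 and 0.626 CPM in luteolin replicates 2 and 3, and Madcam1 reached at most 0.203 CPM. The count was 5 without control replicate 2 and 6 without luteolin replicate 2.

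**Figure D5:**
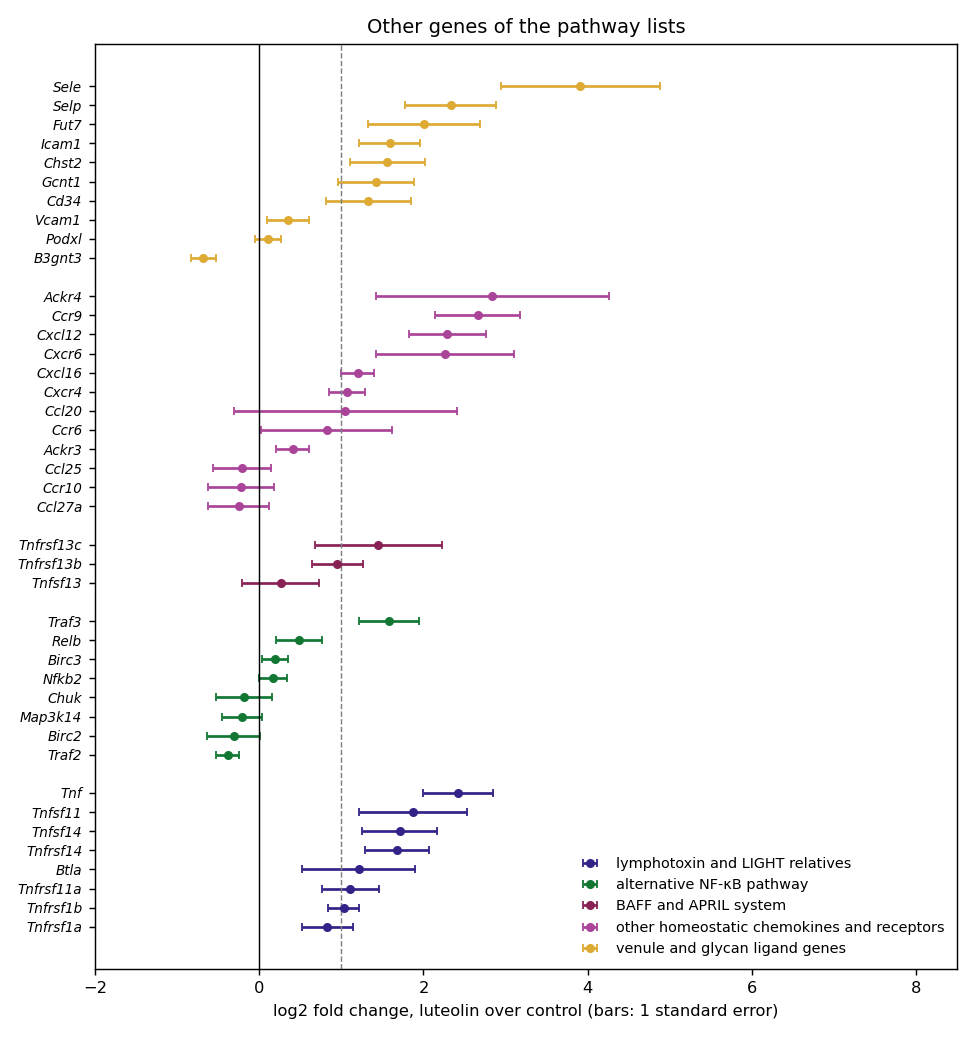
Log2 fold change of luteolin over control with 1 standard error for tested genes of 5 lists around the lymphotoxin and chemokine genes, coloured by list. The dashed line marks a log2 fold change of 1, and 7 of the 8 alternative NF-κB genes lie to its left.

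Over these 5 lists, 20 of 42 tested genes were up-regulated and 0 down-regulated at the study's threshold, where the background was 11.3% and 1.52%. Of the 42, 1 (Cxcl16) had an adjusted p under 0.05 in edgeR. The lists were chosen with earlier results of these data known, so a share above the background is not independent evidence.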

How the data were processed

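RNA-seq libraries of tumour tissue, 3 control and 3 luteolin, were compared. The authors deposited whole-number estimated counts per gene symbol, not scaled between libraries. The submitters' processing notes name bcl2fastq 2.0, HISAT2, StringTie and DESeq2 and the builds rn6 and mm39, without their roles, so no positions were taken from the table. Counts were analysed in R 4.3.3 with edgeR 4.0.16 (TMM, filterByExpr, quasi-likelihood test, no covariates), with Benjamini-Hochberg adjustment over all 14963 tested genes. Standard errors were derived from the F statistic. Totals ran from 61081637 to 80442954 counts per library. Alternatives were DESeq2 1.42.0, voom of limma 3.58.1, other normalizations and filters, values divided by 4, thinned libraries, offsets for GC content and gene length, a replicate block and each library left out. The code was tested on simulated data. The 10 genes and all lists were chosen with earlier results of these data known. Besides the 10 genes, the text names in each list the 3 genes with the smallest p, the 2 with the highest mean and the first marker, and for 3 chemokine genes the 3 genes of closest correlation, and other list genes were named after their values had been seen. Sequences and transcript lengths came from GENCODE M21 and RefSeq (both GRCm38) and primers from the study, matched by symbol. Some listed genes enter the counts and sums but are not reported here singly.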

Additional observations from a re-analysis of the deposited data

How the results depend on the processing

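The count of up-regulated genes among the 10, 6 at the study's threshold, ranged from 4 (at least 10 counts in every library, which left 6 of the genes tested) to 8 (DESeq2). Over the whole table these settings gave 1473 of 13571 and 2004 of 17790 genes as up-regulated. Cxcl13, Ccr7, Ltb and Tnfsf13b passed in every setting run. At an adjusted p under 0.05 the count was 0 in edgeR but 5 in DESeq2, 4 in voom, 1 with offsets for GC content and gene length and 2 with these offsets and the replicate block. The settings that removed low counts could not test Ccl21a and Lta (10 counts) or Lta (values divided by 4). Thinning and the RLE and upper-quartile normalizations changed no call among the 10 genes. The log2 fold change of Cxcr5 turned to -1.01 in voom and -0.56 without luteolin replicate 2 (up to 1.20 with another library left out), and that of Ltbr to -0.01 with the offsets and -0.02 with offsets and block, where the cause was not tested. Lta lost its call in voom (1.26), without the filter (2.29), with the replicate block (1.94), with offsets (1.78) and with both (1.58), and its value ranged from 1.25 to 2.75 with a library left out. Ccl21a ranged from 3.45 to 6.92 in the same way. Over the whole table, 227 genes were down-regulated, a count that became 498 in voom, 462 with offsets and 465 with offsets and block, and 140 to 305 with a library left out. The 200 genes higher at an adjusted p under 0.05 became 1543 in DESeq2, 1886 in voom, 345 with at least 10 counts, 34 with the replicate block, 327 with values divided by 4, 557 with offsets, 566 with offsets and block and 0 to 276 with a library left out. The 28 lower genes became 415, 1311, 47, 1, 46, 305, 179 and 0 to 36 in that order.

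The labels do not say whether the replicate numbers pair the libraries. Deviations of same-numbered libraries from their group means correlated at -0.196, -0.092 and 0.063 over the tested genes. Those of differently numbered libraries correlated at -0.124 to 0.2. With so few libraries, such values cannot settle whether there was pairing. The replicate block gave 1293 up-regulated and 177 down-regulated genes, and 5 of the 10. Depth limits the genes with few counts most, Ccl19 and Glycam1 with 69 and 42 counts in all luteolin libraries together and Ccl21a and Lta with 41 each in all control libraries together.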

Other observations

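Other marker lists gave values outside the chemokine system. Neutrophil genes summed to 17.0, 15.9 and 18.9 CPM in control replicates 1, 2 and 3 and 163, 180 and 70.4 CPM in luteolin replicates 1, 2 and 3, with all 4 genes up-regulated at the study's threshold and S100a9, an alarmin of neutrophils, at a log2 fold change of 4.70. Plasma cell genes had 4 of 5 genes up-regulated, with Mzb1, a chaperone of antibody secretion, at 2.90 and Prdm1, the regulator of plasma cell fate, at 1.76, while the summed level was 251 ± 27.0 CPM in the control group and 495 ± 162 CPM in the luteolin group (SD, n = 3 each). The mature dendritic cell list had 7 tested genes, of which 3 were up-regulated and 1 was down-regulated, with a median log2 fold change of 0.11. Its summed level had means of 102 CPM in the control group and 129 CPM in the luteolin group, with overlapping libraries. Ccl22 was up-regulated at 1.80, while Cd83 (0.09), Cacnb3 (0.11) and Socs2 (-0.20) were not called. Ccl17, the other ligand of CCR4, was down-regulated at -1.82. It had 4.55, 3.47 and 2.73 CPM in the control libraries and 0.522, 1.80 and 0.720 CPM in the luteolin libraries. Of the lymphoid tissue inducer list, Id2 and Kit were up-regulated, at 1.68 and 1.56. Il23r of the same list was at 0 in all libraries except luteolin replicate 2.

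The remaining lists had mean summed levels of 92.0 and 181 CPM in the control and luteolin groups for blood endothelium, 1710 and 2390 CPM for macrophages, 623 and 442 CPM for skeletal muscle (a log2 ratio of -0.49, and -1.49 without luteolin replicate 2) and 329 and 324 CPM for hepatocyte and hepatoma genes.

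The genes whose log2 CPM followed those of the chemokines most closely over the 6 libraries were Gpr55, Rbm47 and Prlr for Cxcl13 (Pearson's r from 0.995 to 0.998) and Pfdn5, Ulk3 and Zfp532 for Ccl21a (r about 0.994). For Ccl19, which was at 0 in 4 of the 6 libraries, they were Mag (0.9985), Sdr39u1 (0.9903) and Ikzf1 (0.9671). With 6 libraries that share depth and composition, 214, 234 and 13 genes had an r over 0.95 with Cxcl13, Ccl21a and Ccl19.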
